A study of Rattus norvegicus with 8 samples.

Results

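The genes that build cholesterol and fatty acids were followed in rat Sertoli cells, the somatic cells that line the seminiferous tubule and nurse the germ cells. A list of 41 symbols, older and newer names included, stood for 37 distinct genes. Of these, 32 had an annotated array row that carried their symbol alone, out of 17582 genes with such a row. They comprise 16 genes of sterol synthesis, 11 of fatty acid synthesis, and 5 that sense or carry sterols.

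Cells from rat testes were grown in primary culture in medium with fetal bovine serum and then kept for 24 hours with solvent (control), with 0.1 µM NP, with 0.1 mM MBP, or with 0.1 µM NP plus 0.1 mM MBP (NP+MBP). The labels do not spell out either compound, and give neither strain, age nor the number of animals. Total RNA of each group was read on 1 Affymetrix gene-level array, so there were 4 arrays in all and no difference between single arrays had a replicate check. Values are log2 signals, on which a difference of 1 is a doubling, and a signal is set only against the same gene on another array.

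Cholesterol is made from acetyl-CoA. The mevalonate arm turns acetyl-CoA into farnesyl pyrophosphate, and the second arm joins farnesyl units into squalene, closes the sterol ring and trims it to cholesterol. Fatty acid synthesis starts from the same acetyl-CoA, which is supplied by Acly and Acss2. SREBP transcription factors drive both sets of genes, SREBP-2 mainly the sterol genes and SREBP-1c mainly the fatty acid genes. When membranes are rich in sterol, Insig proteins hold the SREBP escort Scap in the endoplasmic reticulum. Sertoli cells use cholesterol for their own membranes and handle lipid from the germ cells that they engulf.

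SREBPs bind promoters together with NF-Y, whose box reads CCAAT, and Sp1, whose GC box reads GGGCGG. Promoters from the RefSeq tables (build GRCr8, 250 bases before to 50 after the start of each gene) were found for 26 of the 32 members. Not matched were Pmvk, Fdft1, Sqle, Stard4, Acaca and Elovl6. The promoters shown are of genes from both branches, and not all of them follow the contrast between the branches. Hmgcs1, Lss, Msmo1 and Dhcr7 are sterol genes whose signal was lower on the 2 arrays that received MBP. Acss2, also lower on these arrays, had the lowest mean MBP difference of the fatty acid genes, and Elovl5 was a fatty acid gene that was higher. Each line gives the 250 bases before the start, 5′ to 3′ on the strand of the gene, with CCAAT or its reverse complement ATTGG in capitals. The windows are chr2:53382054-53382303 (plus strand) for Hmgcs1, chr20:12118231-12118480 (minus) for Lss, chr16:29746863-29747112 (plus) for Msmo1, chr1:208444184-208444433 (plus) for Dhcr7, chr3:164464453-164464702 (plus) for Acss2 and chr8:87670914-87671163 (plus) for Elovl5.
Hmgcs1: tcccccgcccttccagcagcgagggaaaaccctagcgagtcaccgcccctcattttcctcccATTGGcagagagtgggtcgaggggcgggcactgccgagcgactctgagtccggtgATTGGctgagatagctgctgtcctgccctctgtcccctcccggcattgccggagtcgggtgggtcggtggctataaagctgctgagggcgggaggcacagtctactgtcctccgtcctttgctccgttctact
Lss: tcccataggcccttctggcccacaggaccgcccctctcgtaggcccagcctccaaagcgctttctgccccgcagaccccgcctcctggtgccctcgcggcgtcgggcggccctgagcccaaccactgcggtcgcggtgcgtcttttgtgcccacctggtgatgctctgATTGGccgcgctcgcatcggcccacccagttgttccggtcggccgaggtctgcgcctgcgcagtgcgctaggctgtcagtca
Msmo1: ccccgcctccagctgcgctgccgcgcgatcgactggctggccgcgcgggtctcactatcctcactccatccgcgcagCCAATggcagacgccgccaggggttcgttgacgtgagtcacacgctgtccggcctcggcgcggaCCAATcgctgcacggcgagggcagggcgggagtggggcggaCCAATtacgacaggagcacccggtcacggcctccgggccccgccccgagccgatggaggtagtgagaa
Dhcr7: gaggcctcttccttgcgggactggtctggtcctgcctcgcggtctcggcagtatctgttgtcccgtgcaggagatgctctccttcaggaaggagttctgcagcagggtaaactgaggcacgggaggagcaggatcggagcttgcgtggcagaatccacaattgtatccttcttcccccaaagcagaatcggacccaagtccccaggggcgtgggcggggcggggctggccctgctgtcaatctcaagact
Acss2: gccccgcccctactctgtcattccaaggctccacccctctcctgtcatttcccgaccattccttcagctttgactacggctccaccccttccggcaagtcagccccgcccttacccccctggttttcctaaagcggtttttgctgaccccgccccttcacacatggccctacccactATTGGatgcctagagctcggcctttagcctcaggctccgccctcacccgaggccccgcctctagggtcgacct
Elovl5: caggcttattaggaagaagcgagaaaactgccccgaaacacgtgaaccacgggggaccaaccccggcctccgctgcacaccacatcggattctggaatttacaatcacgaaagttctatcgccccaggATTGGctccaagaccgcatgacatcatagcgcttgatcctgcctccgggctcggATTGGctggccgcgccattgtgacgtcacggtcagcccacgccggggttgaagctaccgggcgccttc

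Hmgcs1 and Elovl5 each hold 2 CCAAT boxes in these windows, Msmo1 holds 3, Lss and Acss2 hold 1 each, and Dhcr7 holds none. Both strands of each 300-base promoter were searched, and every motif was counted on its own, so letters shared by neighbouring motifs can count for both. CCAAT was present in 18 of the 26 promoters of members (10 of 13 in the sterol branch, 5 of 9 in the fatty acid branch, 3 of 4 in the sensing group) and in 39.6% of the promoters of all 27457 genes in the table. GGGCGG was also in 18 of 26, against 36% of all genes. The E-box CACGTG was in 4 of 26 (Elovl5, Insig1, Sc5d and Scap), against 7.08%. The SREBP motif searched, TCACNCCAC, was in 0 of 26 and in 1.25% of all genes, which says only that these letters are not in this window. Among sterol genes that were lower in both MBP pairs, 6 of 9 promoters held CCAAT, and among the other sterol genes 4 of 4 did.

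Each compound was read in 2 pairs of arrays with no array in common. The difference for MBP was taken from control to MBP (MBP minus control), and again in the presence of NP (NP+MBP minus NP). That for NP was taken likewise, without MBP (NP minus control) and with it (NP+MBP minus MBP). Below, the MBP arrays are the 2 that received MBP, alone or with NP, and the NP arrays the 2 that received NP. The error given is the SD of the 2 pairs (n = 2 pairs). It also holds any interaction of the compounds, and by construction it is the same for NP as for MBP in a given gene. All 32 members passed the filter on low signal (mean log2 of 7.50 or more, the median of the array), with mean signals between 7.87 and 12.46. The Sertoli genes Sox9, Wt1 and Clu were between 10.60 and 10.65, 9.64 and 9.81, and 11.43 and 11.53 on the 4 arrays. The pairs that hold the control array spread more widely (SD over probe sets of 0.105 and 0.106) than NP+MBP minus NP (0.078) and NP+MBP minus MBP (0.064). The median of the 9998 genes above the filter was above 0 in all 4 pairs, at 0.027 and 0.013 for MBP and 0.021 and 0.0079 for NP, and members are read against these medians. Across the members the differences were small: the largest between the arrays of a pair was 0.196, and 0 of 32 members reached 1.5-fold in any pair, as against 0.05% of all genes in each MBP pair and 0% in each NP pair.

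In the sterol branch, most genes were lower with MBP whether or not NP was present. Of 16 genes, 12 were lower in both MBP pairs and 1, Ebp, was higher in both, while over all genes above the filter 20.5% were lower in both and 45% higher in both. In MBP minus control 14 of 16 were below 0 (34.7% of all genes), and in NP+MBP minus NP 13 of 16 were (40.6% of all genes). The median sterol gene stood at -0.049 and -0.046 in the 2 pairs, which is 0.076 and 0.059 under the median of all genes. Stricter still, both MBP arrays were below both arrays without MBP for 10 of the 16 genes (13.6% of all genes) and above both for 1 (31.5%). These are descriptions of 4 arrays, and whether fewer cells of a type or less RNA per cell lay behind a lower signal cannot be told apart in bulk RNA.

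**Figure D1:**
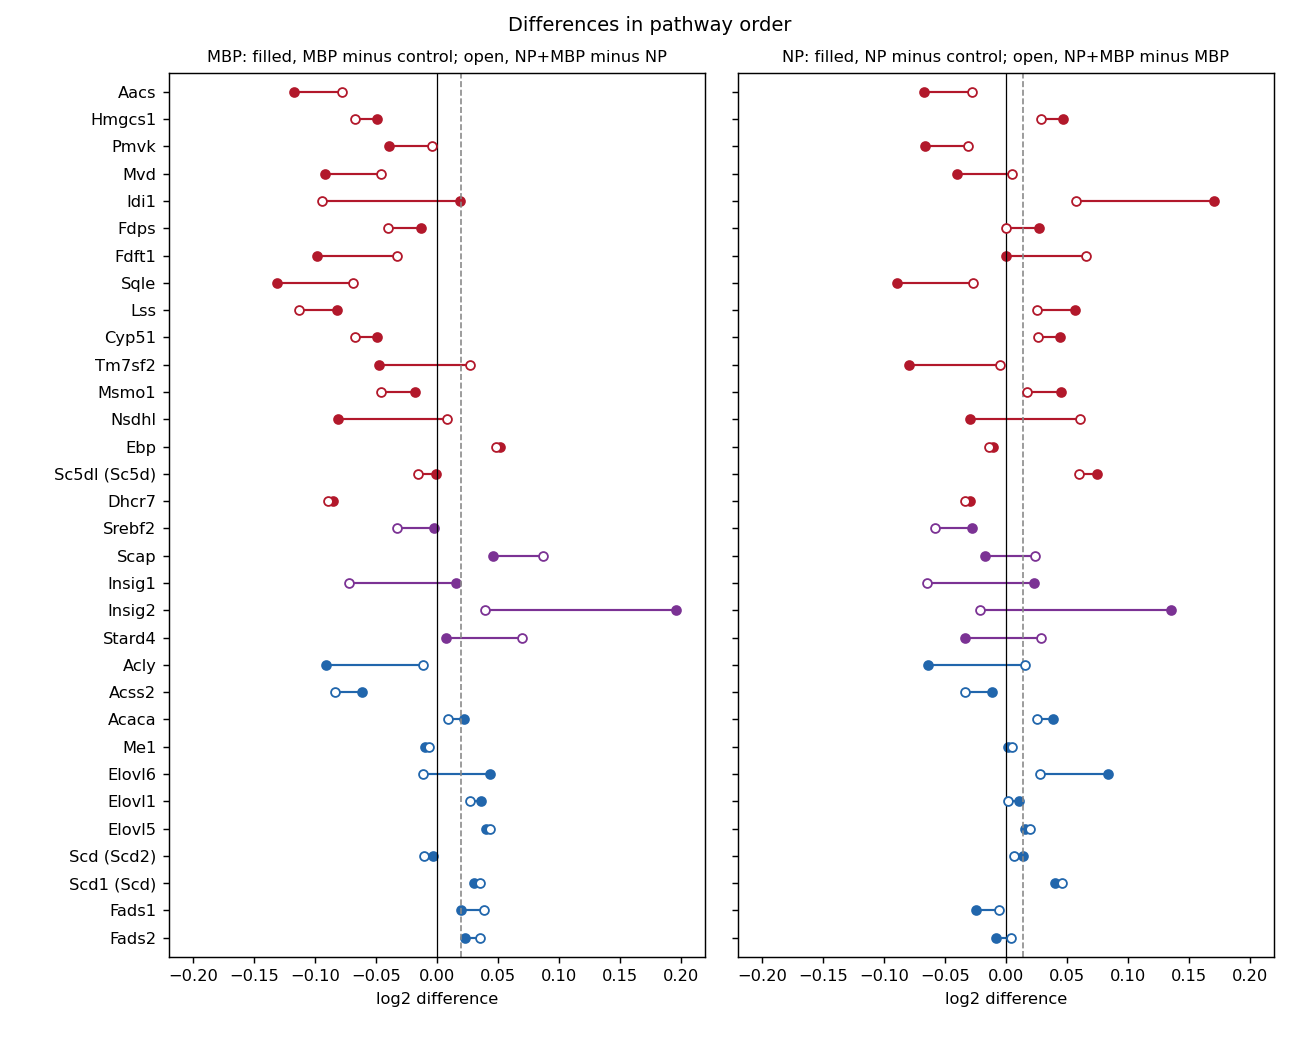
Log2 differences of the 32 members in pathway order, for the MBP pairs (left) and the NP pairs (right); a line joins the 2 pairs of a gene, filled points are the pairs with the control array, open points the pairs without it, and the dashed line is the mean of the 2 medians of all genes. Colours mark sterol synthesis (red), sterol sensing and carriage (purple) and fatty acid synthesis (blue). In the left panel 12 of the 16 sterol genes have both points left of 0 (20.5% of all genes are lower in both MBP pairs). In the same panel 6 of the 11 fatty acid genes have both points right of 0 (45% of all genes are higher in both).

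The first steps of the mevalonate arm showed the pattern plainly. Aacs, which makes acetoacetyl-CoA in the cytosol, had log2 signals of 9.59 on the control array, 9.53 with NP, 9.48 with MBP and 9.45 with NP+MBP. Hmgcs1, the synthase that makes HMG-CoA, stood at 11.45, 11.50, 11.40 and 11.43 in the same order. For both genes the 2 MBP arrays were the 2 lowest of the 4. The mean MBP difference was -0.098 ± 0.028 for Aacs and -0.058 ± 0.013 for Hmgcs1 (SD, n = 2 pairs).

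Further along the arm, Mvd, the decarboxylase that yields isopentenyl pyrophosphate, read 9.52, 9.48, 9.43 and 9.43, a mean MBP difference of -0.069 ± 0.032. Fdps, which makes farnesyl pyrophosphate, read 8.66, 8.68, 8.64 and 8.64, a smaller difference of -0.027 ± 0.019. Pmvk, the kinase before Mvd, read 8.85, 8.78, 8.81 and 8.78. Pmvk was lower in both MBP pairs, but with a difference of only -0.0044 in the pair with NP, since its signal was already low on the NP array.

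Idi1, the isomerase of isopentenyl pyrophosphate, was the exception of this arm. Its signals were 9.60, 9.77, 9.61 and 9.67. The NP array was the highest, and both NP arrays were above both arrays without NP. The MBP difference was 0.018 without NP and -0.095 with it. The mean NP difference was 0.114 ± 0.080, at the 95.1th percentile of all genes.

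Sqle and Lss, early in the second arm, had the lowest mean MBP differences of the branch, and Dhcr7, at its end, was close behind. Sqle, squalene epoxidase, which adds the first oxygen on the way to the sterol ring, read 10.49, 10.40, 10.36 and 10.33. Lss, lanosterol synthase, which closes that ring, read 10.16, 10.22, 10.08 and 10.11. Dhcr7, the reductase that completes cholesterol, read 10.12, 10.09, 10.04 and 10.01. In each of these genes the MBP arrays lay under the other two, without overlap. The mean MBP difference was -0.100 ± 0.044 for Sqle, -0.098 ± 0.022 for Lss and -0.087 ± 0.003 for Dhcr7, between the 4.35th and the 5.69th percentile of all genes. As ratios of signal, these are 0.933, 0.934 and 0.941.

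The array rows behind these genes span, on RGSC3.4 as the workbook gives them, chr7:96096766-96111772 for Sqle, chr20:12507573-12534635 for Lss, chr1:204245562-204258913 for Dhcr7 and chr12:32206863-32250624 for Aacs. Each row covers the gene rather than a single exon, and 0 of the 32 member rows are marked as open to cross-hybridization.

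The other genes of the second arm were closer to 0. Fdft1, squalene synthase, read 11.67, 11.67, 11.57 and 11.64, so that its MBP difference of -0.099 without NP was only -0.033 with it. Cyp51, the lanosterol demethylase, read 11.70, 11.74, 11.65 and 11.67, a mean of -0.058 ± 0.013. Msmo1, the C4-methyl oxidase, read 11.83, 11.88, 11.81 and 11.83. The MBP arrays were again the 2 lowest for Fdft1, Cyp51 and Msmo1, although the control and NP+MBP arrays were close to each other for Msmo1. Sc5d (row labelled Sc5dl), the desaturase before Dhcr7, was at 11.37, 11.44, 11.37 and 11.43 and hardly differed with MBP (-0.0085 ± 0.011).

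Tm7sf2, a C14 sterol reductase, and Nsdhl, which acts in C4 demethylation, were lower with MBP alone (-0.048 and -0.082) and slightly above 0 in the presence of NP (0.027 and 0.0080). Ebp, the sterol isomerase, was on the other side of 0. It read 9.64, 9.63, 9.69 and 9.67, a mean MBP difference of 0.050 ± 0.002, with both MBP arrays above the others. The pairs agreed closely for both Dhcr7 and Ebp, but an SD of 2 pairs can be small without the difference being precise. In the limma model described below, the standard error of the MBP difference was 0.031 for each of these genes.

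**Figure D2:**
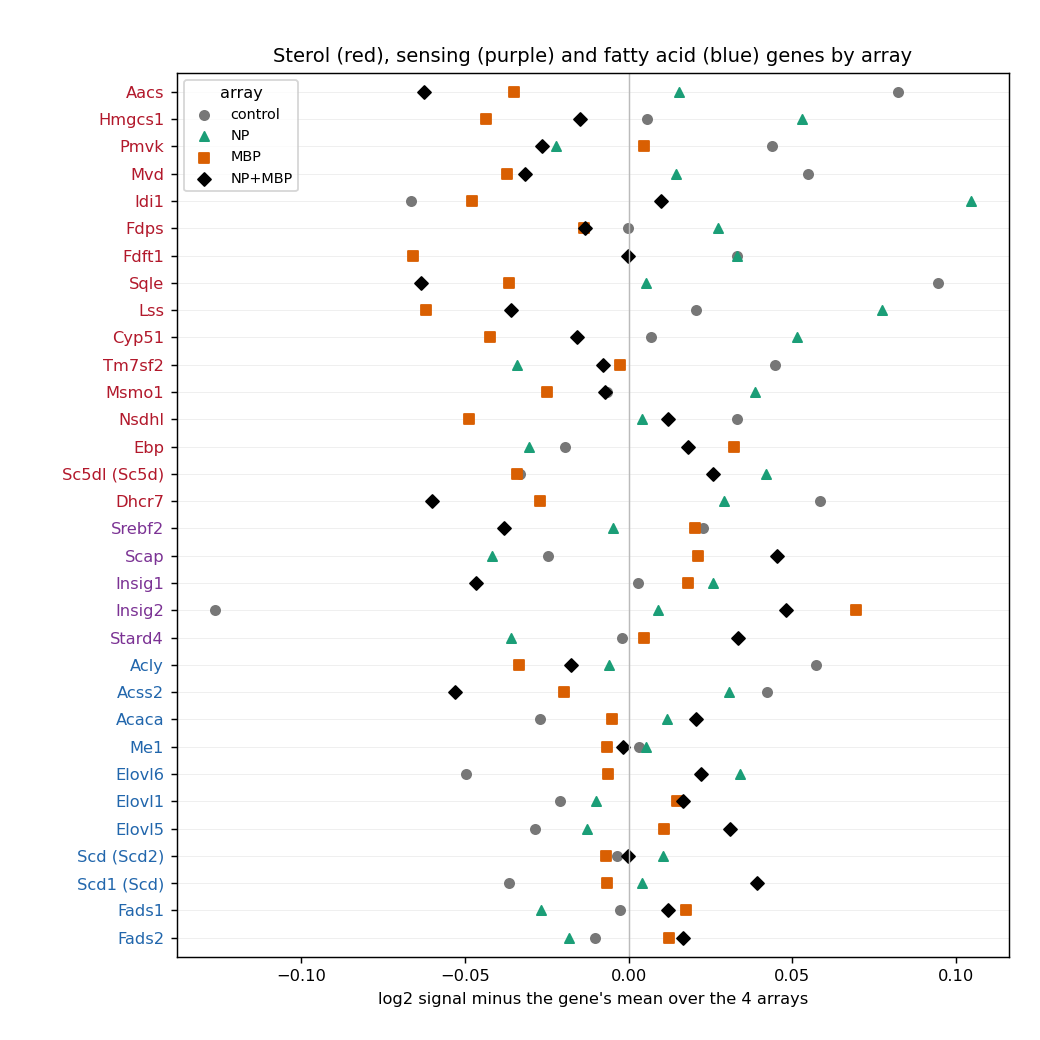
Log2 signal of each member on each of the 4 arrays, as the distance from the mean of that gene over the arrays; 1 point is 1 array, and gene names are red for sterol synthesis, purple for sensing and carriage and blue for fatty acid synthesis. The MBP (square) and NP+MBP (diamond) points lie left of the control and NP points for 10 of the 16 sterol genes (13.6% of all genes). The control array stands alone to the left for Insig2.

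In the additive model of limma, which fits an MBP and an NP term to the 4 arrays and leaves 1 residual degree of freedom, none of the members passed an adjusted p of 0.05. For MBP the smallest adjusted p among members was 0.296 (Lss), and 0 of 13798 probe sets were called, 0% of those tested, although 15.3% had an unadjusted p under 0.05. At that unadjusted level, 4 sterol genes were lower (Aacs, Sqle, Lss and Dhcr7, of 16), against 4.14% of all genes lower, and 0 sterol genes were higher, against 10.9%. For NP the smallest adjusted p was 0.419 (Idi1), with 0 sets called, again 0%, and 11.8% at the unadjusted level. There Idi1 was the 1 sterol gene that was higher (6.86% of all genes), and 0 were lower (3.02%). On simulated arrays with 200 sets changed by MBP, the same model recovered 0% of the sets changed by 0.2 log2 and 94.5% of those changed by 0.5. Differences of the size seen in the members were thus not called in the simulation. Its rates do not carry over to the real arrays, where the tight junction gene Cldn11 was not called either, at a mean MBP difference of -0.616 ± 0.073.

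Scaling between arrays moved the split of the sterol branch. With each array centred on its own median, 8 sterol genes were lower in both MBP pairs and 1 higher, while all genes were at 13.8% lower and 53.8% higher. With quantile normalization 14 were lower and 1 higher (all genes 30.8% and 31.5%), and with cyclic loess 14 and 1 (30.2% and 32.3%). Aacs, Hmgcs1, Mvd, Fdft1, Sqle, Lss, Cyp51 and Dhcr7 were lower in both pairs, and Ebp higher, under the deposited scaling and under all 3 of these.

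NP gave no common direction in the sterol branch. In both NP pairs 6 of 16 genes were lower (20.9% of all genes) and 8 were higher (40% of all genes). The median was -0.0053 for NP minus control and 0.012 for NP+MBP minus MBP, that is, 0.026 under and 0.0036 above the median of all genes. In NP minus control 8 of 16 were below 0 (37.2% of all genes), and in NP+MBP minus MBP 6 of 16 (43.6%). Both NP arrays were above both others for 2 genes, Idi1 and Sc5d (22.5% of all genes), and below for 2, Pmvk and Tm7sf2 (12% of all genes).

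The genes higher in both NP pairs were Hmgcs1, Idi1, Fdps, Fdft1, Lss, Cyp51, Msmo1 and Sc5d. For Fdps and Fdft1 1 of the 2 differences was close to 0. The mean NP difference was 0.067 ± 0.011 for Sc5d, 0.041 ± 0.022 for Lss and 0.038 ± 0.013 for Hmgcs1. Lss, Hmgcs1, Cyp51 and Msmo1 therefore had opposite signs for the 2 compounds, lower with MBP and higher with NP in every pair. Their highest signal was on the NP array and their lowest on the MBP array. The same held for Sc5d, Fdps and Fdft1, but each had 1 difference close to 0. These were -0.00091 for Sc5d (MBP minus control), 0.00027 for Fdps (NP+MBP minus MBP) and 0.00024 for Fdft1 (NP minus control). Sqle, Aacs, Dhcr7 and Pmvk were lower in all 4 pairs. Sqle had a mean NP difference of -0.058 ± 0.044 and Aacs of -0.047 ± 0.028. The NP pairs and the MBP pairs use the same 4 arrays, so the 2 sets of values are shown side by side and not as separate evidence.

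**Figure D3:**
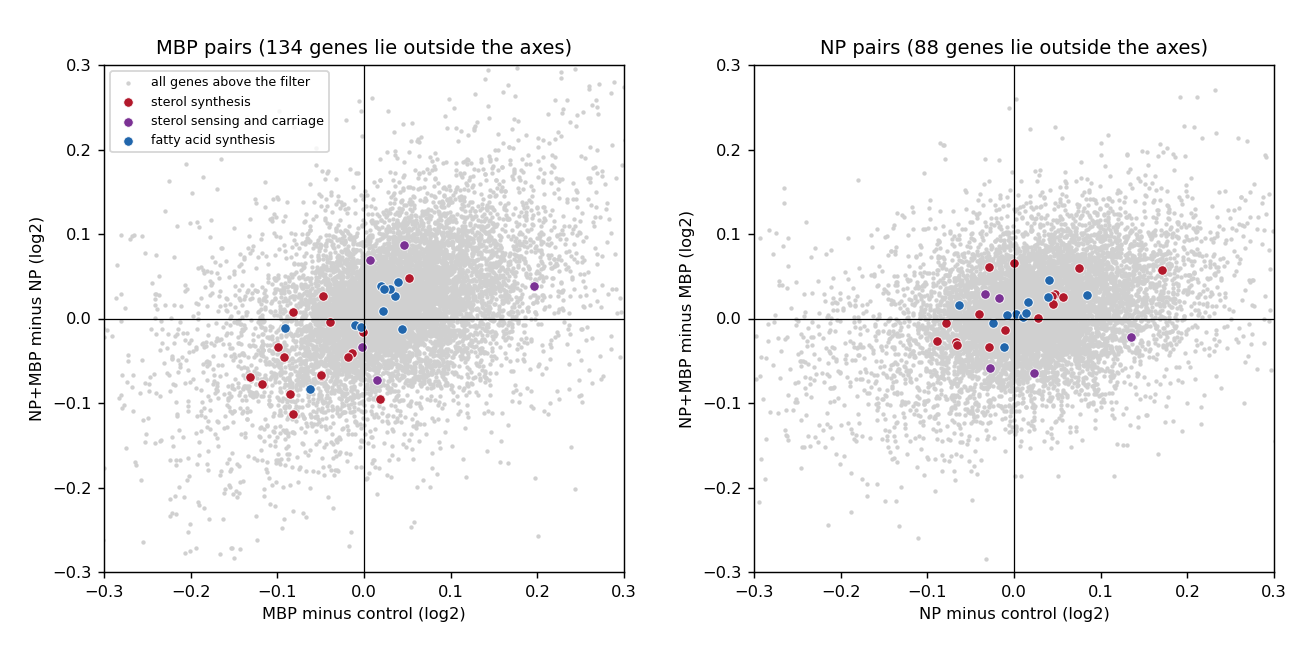
Each point is a gene, placed by its log2 difference in the pair with the control array (horizontal) and in the pair without it (vertical), for MBP on the left and NP on the right; grey points are the 9998 genes above the filter and coloured points the members. On the left 12 of the 16 sterol genes lie below 0 on both axes, as do 20.5% of all genes, and on the right 6 of the 16 do, as do 20.9% of all genes.

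The fatty acid branch did not share the MBP pattern. Of 11 genes, 4 were lower in both MBP pairs and 6 higher (all genes 20.5% and 45%). Its median was 0.022 for MBP minus control and 0.0087 for NP+MBP minus NP, within 0.0048 of the median of all genes in each pair. The 4 lower genes were Acly, Acss2, Me1 and Scd2 (row labelled Scd). The 6 higher were Acaca, Elovl1, Elovl5, Scd (row labelled Scd1), Fads1 and Fads2, and Elovl6 had opposite signs in the pairs. Scaling changed this split: 2 were lower and 6 higher with median centring (all genes 13.8% and 53.8%), 5 and 5 with quantile normalization (30.8% and 31.5%), and 5 and 3 with cyclic loess (30.2% and 32.3%).

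Acss2, which makes acetyl-CoA from acetate, was the lowest, at 10.08 on the control array, 10.07 with NP, 10.02 with MBP and 9.99 with NP+MBP. Its mean MBP difference was -0.073 ± 0.015, at the 7.70th percentile of all genes. Acly, the enzyme that splits citrate into acetyl-CoA, read 11.16, 11.10, 11.07 and 11.09. For both genes the MBP arrays were the 2 lowest, but for Acly the difference was -0.091 without NP and -0.011 with it. Me1, malic enzyme, which supplies NADPH, was at 11.60, 11.61, 11.59 and 11.60 and Scd2 at 12.46, 12.47, 12.45 and 12.46, so their place among the lower genes rests on differences of at most 0.011.

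Acaca, acetyl-CoA carboxylase, the first committed step, read 9.42, 9.46, 9.44 and 9.46, a mean MBP difference of 0.015 ± 0.009. Scd, a stearoyl-CoA desaturase, read 10.42, 10.46, 10.45 and 10.50 and was highest on the array with both compounds. Elovl5, an elongase of polyunsaturated chains, read 11.49, 11.50, 11.52 and 11.54. For Elovl5 the pairs gave a mean MBP difference of 0.042 ± 0.003, with both MBP arrays above both others.

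The MBP arrays were also above both others for Elovl1, an elongase of saturated and monounsaturated chains, and for Fads1 and Fads2, the delta-5 and delta-6 desaturases. Their mean MBP differences were 0.031 ± 0.006, 0.029 ± 0.013 and 0.029 ± 0.009, close to the 0.020 that was the median over all genes. Thus 4 of 11 genes of this branch had both MBP arrays above the others, as had 31.5% of all genes, and 3 (Acly, Acss2 and Me1) had both below, as had 13.6%. Elovl6, which extends palmitate, read 10.76, 10.85, 10.81 and 10.84 and had an MBP difference of 0.044 alone and -0.012 with NP.

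For NP, 7 of 11 fatty acid genes were higher in both pairs (all genes 40%) and 2, Acss2 and Fads1, were lower (all genes 20.9%). The medians were 0.011 and 0.0069. Both NP arrays were above both others for 4 genes, Acaca, Elovl6, Scd2 and Scd (all genes 22.5%). The mean NP difference was 0.056 ± 0.039 for Elovl6 and 0.043 ± 0.004 for Scd. Scaling decided how many genes counted as lower here. With median centring 0 genes were lower in both NP pairs and 9 higher (all genes 12.7% and 52.2%), and with quantile normalization 6 were lower and 4 higher (31.8% and 27.8%).

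Among the genes that sense sterol, Srebf2, which encodes SREBP-2, read 10.59, 10.56, 10.59 and 10.53. It was lower in both NP pairs (-0.043 ± 0.022) and differed by -0.0027 and -0.033 in the MBP pairs. Scap, the escort of SREBPs, read 10.04, 10.02, 10.08 and 10.11, with both MBP arrays above both others (0.066 ± 0.029). Under the deposited scaling, the gene for the transcription factor and that for its escort thus lay on opposite sides of 0 in both MBP pairs. With median centring this no longer held, as 0 of the 5 sensing genes were lower in both MBP pairs (all genes 13.8%).

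Insig1, itself a target of SREBP, read 11.15, 11.17, 11.17 and 11.10, so only the array with both compounds was low. A second row of Insig1, marked as open to cross-hybridization, gave an MBP difference of -0.028 ± 0.005. Insig2, the other anchor of Scap, had the widest spread of all members, at 8.22 on the control array and 8.35, 8.41 and 8.39 on the treated arrays. Its MBP difference was 0.196 without NP and 0.039 with it, a mean of 0.118 ± 0.111, so the SD was nearly as large as the mean. Stard4, a carrier of cholesterol between membranes, read 7.87, 7.83, 7.87 and 7.90. Of these 5 genes, 3 (Scap, Insig2 and Stard4) were higher in both MBP pairs (all genes 45%) and 1, Srebf2, was lower (all genes 20.5%).

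Of the listed genes, 5 had rows outside the rule, and 3 of them belong to sterol synthesis. Mvk, mevalonate kinase, known only from the description of its row, read 9.62, 9.62, 9.56 and 9.51, with a mean MBP difference of -0.084 ± 0.032. Acat2, which condenses acetyl-CoA in the cytosol and is labelled Acat3 in the workbook, read 11.14, 11.14, 11.10 and 11.09 on the stronger of its rows, both open to cross-hybridization. Hsd17b7, a sterol ketoreductase whose rows carry several symbols, read 9.99, 10.07, 9.98 and 10.00 on the stronger of its rows. Its weaker row differed by 0.0081 in MBP minus control and -0.026 in NP+MBP minus NP. With these genes added by their stronger rows, 15 of 19 sterol genes were lower in both MBP pairs (all genes 20.5%). Fasn, fatty acid synthase, read 10.97, 10.93, 10.94 and 10.91, lower by a small step in every pair (MBP -0.027 ± 0.003, NP -0.033 ± 0.003). With Fasn added, 5 of 12 fatty acid genes were lower in both MBP pairs (all genes 20.5%). Srebf1, on a row shared with Pemt, was between 8.24 and 8.27 on the 4 arrays.

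Genes around the 2 pathways did not repeat the sterol pattern. Of 19 measured genes of cholesterol uptake, storage and efflux, 16 were above the filter, and of these 4 were lower and 10 higher in both MBP pairs (all genes 20.5% and 45%). Abcg1, which exports cholesterol to lipoproteins, read 9.67, 9.54, 9.85 and 9.84, so both MBP arrays were above both others and the mean MBP difference was 0.237 ± 0.085, with a limma adjusted p of 0.236. Soat1, which stores cholesterol as ester, read 10.85, 10.94, 10.98 and 11.05, lowest on the control array (MBP 0.120 ± 0.020). For Abca1, the other sterol exporter of the list, the NP difference was 0.085 ± 0.014.

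In the isoprenoid side branches, which take farnesyl units for protein prenylation, ubiquinone and dolichol, 2 of 13 genes above the filter were lower and 7 higher in both MBP pairs. For this list and those that follow, the shares of all genes are again 20.5% lower and 45% higher. Ggps1, which makes geranylgeranyl pyrophosphate, was at 7.44, 7.63, 7.66 and 7.78 and lowest on the control array. Of 15 genes of SREBP processing, 2 were lower and 7 higher. There Sp1 read 9.51, 9.74, 9.69 and 9.82, and Mbtps2, the protease that frees SREBP within the membrane, 9.13, 9.30, 9.28 and 9.33. For Ggps1, Sp1 and Mbtps2 the control array alone was low. Of 20 genes that lengthen, activate or esterify fatty acids, 2 were lower and 13 higher, with Acsl4, an activator of arachidonate, at 0.087 ± 0.001. Of 9 genes of NADPH and citrate supply, 2 were lower and 2 higher. Slc25a1, the mitochondrial citrate carrier that feeds Acly, was one of the lower ones (-0.077 ± 0.029), and Me2, mitochondrial malic enzyme, one of the higher (0.134 ± 0.027). None of the genes of these lists passed the adjusted p for either compound.

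**Figure D4:**
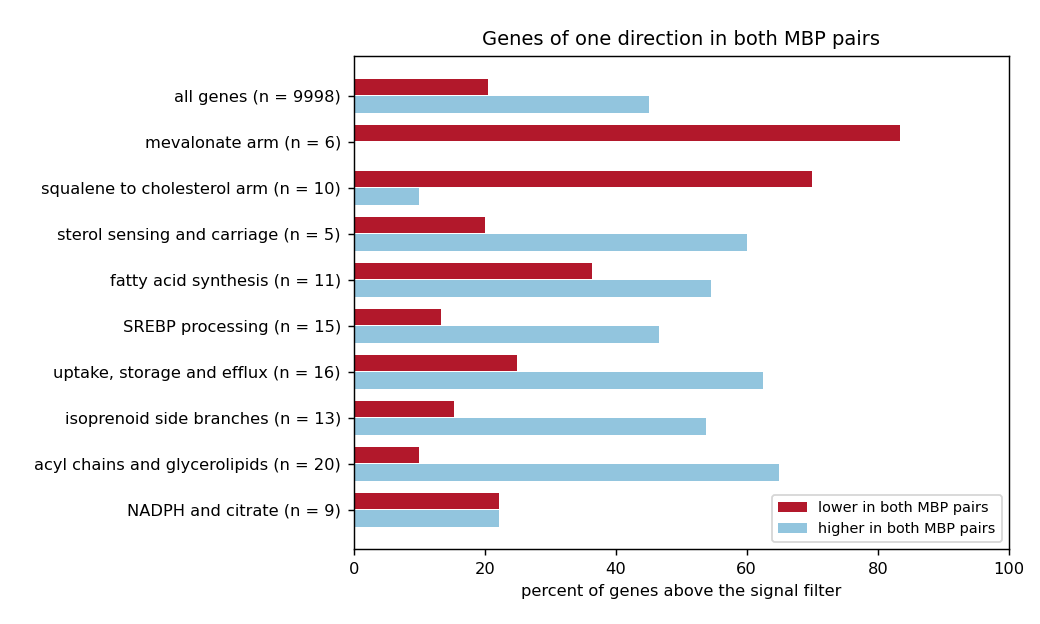
Share of the genes of each list, in percent of those above the signal filter, that were lower (red) or higher (blue) in both MBP pairs; n is the number of genes in the list. Both sterol arms have more genes lower than higher (5 and 0 of 6, 7 and 1 of 10), whereas over all genes 20.5% were lower and 45% higher.

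Some markers of cell types also differed between arrays with and without MBP, and their part in the sterol values was not tested. Of 5 fibroblast markers, all above the filter, 2 were lower and 0 higher in both MBP pairs (all genes 20.5% and 45%), and their mean log2 signal was 11.25 and 11.29 without MBP and 11.07 and 11.09 with it. That gap came from Dpt (-0.524 ± 0.024) and Cd34 (-0.443 ± 0.087), while Pdgfra, Col1a1 and Dcn were within 0.01 of 0. Of 13 Sertoli markers, 12 were above the filter, and of these 4 were lower and 4 higher (the same shares of all genes apply). The mean of all 13 was 9.66 and 9.68 without MBP and 9.63 and 9.61 with it. The 4 lower were Cldn11, Fshr (-0.134 ± 0.168), Inhbb (-0.053 ± 0.015) and Inhba (-0.033 ± 0.005). The 4 higher were Sox9, Wt1, Clu and Dhh. Within that list Cldn11, a tight junction protein, stood at -0.616 ± 0.073. Markers of peritubular myoid cells, 4 of 4 above the filter, ranged from 12.52 to 12.54 in the mean. The 5 germ cell markers, 1 of them above the filter, had means of 7.16 and 7.17 without MBP and 7.33 and 7.37 with it, owing to Dazl (0.852 ± 0.105). Of 4 adipocyte markers 0 were above the filter, of 6 macrophage markers 1 was, of 5 Leydig cell markers 2 were, and of 2 endothelial markers 1 was. With genes below the filter counted too, 3 adipocyte markers were lower and 0 higher in both MBP pairs. On that count 3 Leydig cell markers were lower and 2 higher, 0 macrophage markers lower and 1 higher, and 1 endothelial marker lower and 0 higher. Without the filter 29.5% of all genes were lower and 31.4% higher. Marker genes other than Sox9, Wt1 and Clu were picked for mention after their values were seen.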

How the data were processed

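Each of the 4 groups had 1 gene-level array and 1 microRNA array. Only the gene-level arrays were used, so a group had 1 value per gene and the labels name no replicates. The values are log2 signals that the authors summarised and normalized by gene-level RMA; the source is the workbook's column names, per the file headers. MAS5, with no version, is what the submitters' processing notes give instead. The range of 1.94 to 13.46 is that of log2 data. The deposited value table and the deposited workbook held the same log2 values (0 cells differed by more than 1e-09). Values were read from the table and annotation from the workbook.

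Of 29214 probe sets, 27596 were not controls. Of these, 13798 had a mean log2 signal of at least 7.50, the median. Only rows with 1 symbol were named, and the row with the highest mean stood for its gene. Promoters and current symbols came from RefSeq (GRCr8) and row coordinates from the workbook (RGSC3.4). limma 3.58.1 (R 4.3.3; lmFit, then eBayes) fitted one term for NP and one for MBP without interaction (1 residual degree of freedom), with Benjamini-Hochberg adjustment over the 13798 sets. A true interaction counts as noise in it. It was tested on simulated data with 200 changed sets. Python 3.11.15 (pandas 2.3.3, numpy 2.4.6, matplotlib 3.10.9) did the rest.

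The members, lists and tests were chosen with earlier results of these data known, so no count is independent support for them. Every member could be named. From each surrounding list the rule took the 3 genes with the largest mean MBP and the 3 with the largest mean NP difference, not all of which are printed. Alternatives were median centring, quantile normalization, cyclic loess, no filter, a filter at the 75th percentile, the workbook values, all rows of a gene averaged, and a robust or signal-dependent prior. Leaving out the control array and adding rows outside the rule were chosen after seeing the data. Precision is limited by there being only 4 arrays.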

Additional observations from a re-analysis of the deposited data

Results flagged for a closer look

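For 8 members a compound had differences of opposite sign without and with the other compound, and the 2 differences were at least 0.05 log2 apart. With 1 array per group that departure was not tested. The values below are the difference with the other compound minus the difference without it. By construction this value is the same for NP as for MBP in a given gene. The compound named is the one whose differences had opposite signs, so naming it does not make the departure specific to it.

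In the sterol branch, Idi1 departed by -0.11 for MBP (0.02 without NP, -0.09 with it). Tm7sf2 departed by 0.07 for MBP (-0.05 and 0.03). Nsdhl departed by 0.09 for both compounds (MBP -0.08 and 0.01, NP -0.03 and 0.06), its lowest signal being on the MBP array.

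Of the sensing genes, Insig1 departed by -0.09 for both compounds (MBP 0.02 and -0.07, NP 0.02 and -0.06), and was low only on the array with both. The second row of Insig1, marked as open to cross-hybridization, did not repeat this. That row departed by 0.0070, and its signals were 10.645 with MBP and 10.649 with NP+MBP. Insig2 departed by -0.16 for NP (0.14 without MBP, -0.02 with it), the widest of the set, and Stard4 by 0.06 for NP (-0.03 and 0.03).

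In the fatty acid branch, Acly departed by 0.08 for NP (-0.06 and 0.02), and Elovl6 by -0.06 for MBP (0.04 and -0.01). Both of these genes had the control array at one end of their range.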

How the results depend on the processing

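No paired analysis was possible because each group had 1 gene-level array and the labels carry no replicate numbers; for the same reason no replicate could be left out. The count of sterol genes lower in both MBP pairs was 12 and ran from 8 to 14 over the other scalings, filters and row choices, and the sterol median stayed below that of all genes in both MBP pairs under each of them. Its distance from all genes in MBP minus control, -0.0760, was -0.0464 with no filter and -0.0903 (14 genes) with the 75th percentile filter. In NP minus control, -0.0262 turned to 0.0011 with no filter. Without the control array 13 of 16 sterol genes and 5 of 11 fatty acid genes were lower in NP+MBP minus NP, as were 40.6% of all genes.

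The fatty acid medians lay so close to all genes that their sign was not stable. For MBP minus control, -0.0048 became 0.0084 with quantile normalization, -0.0036 with cyclic loess, 0.0248 with no filter and -0.0028 with the 75th percentile filter. For NP+MBP minus NP, -0.0043 became -0.0106, -0.0098, 0.0030 and -0.0055 in the same order. For NP minus control, -0.0099 became 0.0174 with no filter, and for NP+MBP minus MBP, -0.0010 became 0.00053 with cyclic loess and 0.0062 with no filter. Fatty acid genes lower in both MBP pairs went from 4 to 2 with median centring, and were 5 with quantile normalization and with cyclic loess. Those lower in both NP pairs went from 2 to 0 with median centring, 6 with quantile normalization and 5 with cyclic loess. Dropping the filter lowers the median of all genes and leaves the members' own differences as they are. The 75th percentile filter keeps all 11 fatty acid genes and their differences, and only moves the median of all genes. Median centring adds 1 constant per pair to every gene, 0.025 and 0.0049 for MBP and 0.028 and 0.0076 for NP. It therefore moves the counts and not the distances from all genes. The cause of the shifts with quantile normalization and cyclic loess was not tested.

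Probe sets called by limma for MBP went from 0 to 43 with median centring, 11 with the 75th percentile filter and 100 with a signal-dependent prior, and for NP from 0 to 2, 1 and 5 under these and 13 with no filter. Among members 0 were called in any of these settings, with smallest adjusted p between 0.180 and 0.555 for MBP and between 0.314 and 0.564 for NP. No member's mean difference moved by more than 0.030 with the processing, but small ones changed sign: for MBP 4 of 32 members with median centring, 2 with quantile normalization and 2 with cyclic loess, and for NP 5, 6 and 6, all with reported sizes of at most 0.018.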
